A study of Mus musculus with 14 samples.

Results

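Stem cells and their progenitors from the crypts of mice lacking Atg7 were compared by gate: 3 samples of CD24 low, EGFP high cells (Atg7KO-High) against 4 samples of CD24 low, EGFP low cells (Atg7KO-Low), chosen by the ending of their titles from the 14 arrays of the study. The mice carried 2 floxed Atg7 alleles and a cassette at the Lgr5 locus that encodes EGFP and a tamoxifen-inducible Cre recombinase. They were given tamoxifen on 5 consecutive days and sampled 1 month later. The wild-type groups (3 WT-High and 4 WT-Low samples) carried the same Lgr5 cassette, received the same tamoxifen and had no floxed Atg7, and they are used here only to show where the knockout comparison differs. The labels used here do not state strain, sex or age. Both EGFP and Cre come from the Lgr5 locus. Whether cells of the EGFP low gate lost Atg7 themselves or inherited the loss was not tested. The labels name the EGFP high cells intestinal stem cells and the EGFP low cells their direct transit amplifying progeny. Each sample came from an individual mouse, and 1 ng of total RNA was amplified and hybridised to an Affymetrix Mouse Gene 2.0 ST array. Values are log2 levels of a probe set, and every difference is EGFP high minus EGFP low on that scale, where a difference of 1 is a 2-fold change. Samples carry their group name followed by their title number. Some title numbers occur in both gates of a genotype. The labels do not say whether such samples share a mouse, and the main fit did not pair them.

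Lgr5-positive crypt base columnar cells sit at the bottom of the intestinal crypt and renew the epithelium. Wnt and R-spondin signals keep them in the stem state, Notch signals hold them and their daughters away from the secretory fates, and bone morphogenetic protein (BMP) signals rise towards the villus. Their daughters divide as transit amplifying cells and become absorptive enterocytes or secretory goblet, Paneth, enteroendocrine and tuft cells. Atg7 is the enzyme that activates the ubiquitin-like proteins Atg12 and LC3, a step in the formation of autophagosomes.

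Atg7 itself was at a similar level in both gates of the knockout. It read 6.13, 6.37 and 5.91 in Atg7KO-High-356, Atg7KO-High-348 and Atg7KO-High-386, and 5.79, 6.06, 6.05 and 5.65 in Atg7KO-Low-356, Atg7KO-Low-353, Atg7KO-Low-387 and Atg7KO-Low-386, and every gene below is given in these orders. The gates overlapped and the difference was 0.25 (SE 0.21, adjusted p = 0.468). All 7 knockout values lay below the lowest of the 7 wild-type values, 6.46. The labels used here do not name the floxed exons, so the probe set may also read exons outside the deleted part.

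Among the 7 knockout arrays the gates lay apart on the first principal component, which carried 45.8% of the variance. Atg7KO-High-386 lay closest to the EGFP low samples on it. The spread of log2 values over an array, as an SD, was narrowest in Atg7KO-High-356 (1.90), followed by Atg7KO-High-348 (1.93) and Atg7KO-High-386 (1.98), while the EGFP low samples had 1.98 to 2.04. The median gate difference was 0.10 among the 20% of genes with the lowest mean level and -0.19 among the 20% with the highest. Y-linked genes were detected in 1 sample of each knockout gate, Atg7KO-High-348 and Atg7KO-Low-353. No pair of arrays held identical values.

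The sort separated the cells by the gene it was built on. Lgr5, the R-spondin receptor that marks crypt base stem cells, read 9.03, 9.25 and 9.05 in EGFP high samples and 6.22, 6.25, 5.28 and 5.40 in EGFP low samples. The difference of 3.32 (SE 0.33, adjusted p = 0.000138) checks the labels and is no finding, since EGFP is expressed from that locus. Cd24a, which encodes the surface protein that both gates were held low for, differed by -0.38 (adjusted p = 0.305) and its arrays overlapped.

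Of the 15873 genes tested, 1734 were called at an adjusted p under 0.05, which is 10.9% of them. EGFP high cells had 711 genes higher (4.48%) and 1023 lower (6.44%). Without adjustment, 4289 genes (27.0%) had a p under 0.05. The gates' arrays did not overlap for 1628 of the called genes. Over all genes tested, the 3 EGFP high arrays lay wholly above the 4 EGFP low arrays for 10.8% and wholly below for 11.8%. Among the called genes 681 differed by more than 1. When arrays were centred on their medians the split was 446 higher and 1233 lower, and with the values quantile normalized again it was 848 and 849. With the SD of each array as a covariate 495 genes were called, 264 higher and 231 lower. Without Atg7KO-High-356 the count was 781, without Atg7KO-High-348 it was 851, and without Atg7KO-Low-386 it was 1111.

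After Lgr5, the genes with the greatest rise in EGFP high cells included members of the Lgr5 stem cell list and 2 long noncoding RNAs. Gkn3, a gastrokine of Lgr5 stem cells, read 8.60, 7.85 and 8.19 against 6.49, 5.42, 5.16 and 6.11. Slc14a1, a urea transporter, read 8.20, 8.29 and 7.90 against 6.45, 6.50, 5.39 and 5.21. In both genes every EGFP high array exceeded every EGFP low array, with differences of 2.42 (SE 0.40, adjusted p = 0.00236) and 2.25 (SE 0.32, adjusted p = 0.000921). Kcnq1ot1, a long noncoding RNA antisense to the potassium channel gene Kcnq1, rose by 2.62 (SE 0.40, adjusted p = 0.00158), from 5.61, 6.96, 6.54 and 6.04 to 9.37, 8.96 and 8.40. Jpx, a long noncoding RNA of the X inactivation centre, rose by 1.73 (SE 0.22, adjusted p = 0.0005). Angpt2, which encodes a ligand of the Tie2 receptor, rose by 2.34, and Myo9a, an unconventional myosin, by 2.30. Clca3a2, of the family of calcium-activated chloride channel regulators, was tightly grouped in EGFP high cells at 10.66, 10.64 and 10.60, against 8.00, 8.93, 8.41 and 8.44. Spopfm2 (2.01), Scai (1.85), Tbrg3 (1.85), Aspn (1.84), Cttnbp2 (1.76), Rnf43 (1.75) and Cyp2e1 (1.74) completed the 15 genes with the greatest rise among called, annotated genes whose arrays did not overlap. With the array SD as a covariate Cyp2e1, Spopfm2 and Tbrg3 were not called (adjusted p = 0.1097, 0.1614 and 0.0676 by limma). The calls of Cyp2e1 and Spopfm2 were lost without Atg7KO-High-356 (adjusted p = 0.123 and 0.0971) and without Atg7KO-Low-386 (0.0659 and 0.0506), and that of Cyp2e1 without Atg7KO-High-348 (0.0746). Genes with near-identical copies, such as Spopfm2, Clca3a2, Ces1f, Cyp3a25, Gsdmc2 and the defensins, may be read through shared probes, and their values are uncertain in that respect.

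The 15 greatest falls included 1 Paneth, 1 enterocyte, 2 goblet and 2 enteroendocrine list genes. Afp, alpha-fetoprotein, read 3.40, 3.50 and 3.90 in EGFP high cells and 6.44, 8.10, 8.00 and 8.43 in EGFP low cells, a difference of -4.14 (SE 0.52, adjusted p = 0.000454). Mptx1, a mucosal pentraxin, read 3.11, 2.42 and 3.49 against 6.42, 7.53, 6.64 and 6.60, a difference of -3.79 (SE 0.39, adjusted p = 0.000165). The gates were well apart for both genes. Scin, an actin-severing protein, differed by -3.50, Rgs2, a regulator of G protein signalling, by -3.40, and Reg4, a secreted lectin of crypt secretory cells, by -3.38. Gsdmc2, a gasdermin, differed by -3.29, the alpha-tubulin gene Tuba1a by -3.19 and the calcium-binding protein S100a6 by -3.07. Among genes of absorptive and xenobiotic metabolism, the carboxylesterase Ces1f differed by -3.48, the cytochrome P450 Cyp3a25 by -3.12 and intestinal alkaline phosphatase, Alpi, by -3.07. Clca1, Zg16, Nts and Gip, described with their cell types, were the other four. All 15 were picked from called genes whose arrays did not overlap, so the calls and the gaps between gates were fixed by that choice. With the array SD as a covariate Alpi, Ces1f, Gip and Nts were not called (adjusted p = 0.071, 0.0579, 0.107 and 0.1245 by limma).

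**Figure D1:**
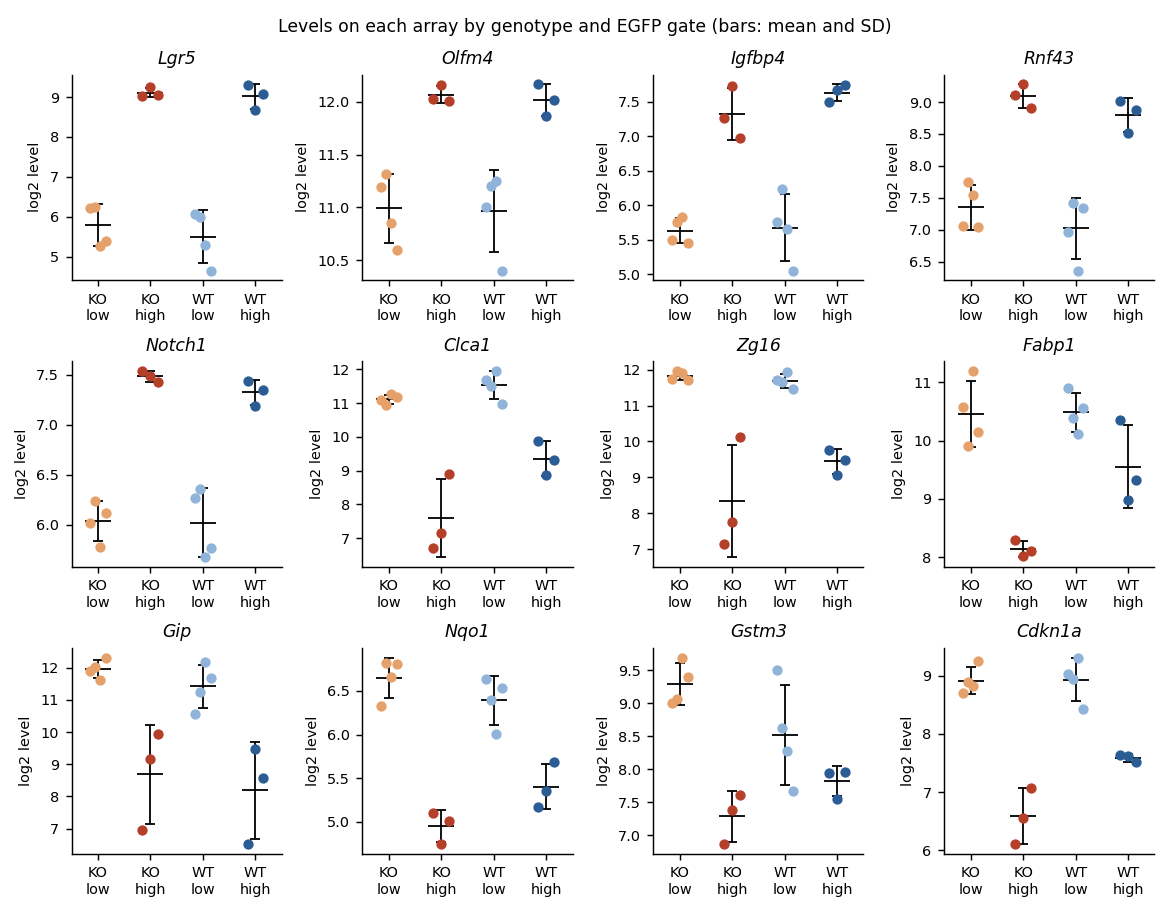
Log2 level (vertical axis) of 12 genes on each array, with knockout EGFP low (n = 4), knockout EGFP high (n = 3), wild-type EGFP low (n = 4) and wild-type EGFP high (n = 3) samples along the horizontal axis; points are arrays and bars the mean and SD. Lgr5, Olfm4, Igfbp4, Rnf43 and Notch1 were higher in the knockout EGFP high samples, and Clca1, Zg16, Fabp1, Gip, Nqo1, Gstm3 and Cdkn1a were lower, each with no overlap between the knockout gates.

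Lgr5 stem cell genes rose as a group. Over all genes tested 4.48% were called higher and 6.44% lower, and each list count is to be read beside these shares. Of 30 tested members of a list of 32, 23 were called higher and 0 lower, and all 30 differences were positive with a median of 1.10, where the median over all genes tested was 0.02. Without Lgr5, the gated gene, 22 of 29 were called higher, with a median of 1.08. In wild type 25 of the 30 were called higher and 0 lower, with a median of 1.27. The mean level of the list was 7.93 to 8.08 in EGFP high and 6.68 to 6.99 in EGFP low samples. Olfm4, a secreted glycoprotein of crypt base cells, read 12.03, 12.16 and 12.01 against 11.19, 11.32, 10.85 and 10.60 and rose by 1.08 (SE 0.21, adjusted p = 0.00591). Igfbp4, which binds insulin-like growth factors, read 7.26, 7.73 and 6.98 against 5.50, 5.75, 5.83 and 5.45, a rise of 1.69 (SE 0.24, adjusted p = 0.000921). Both genes had every EGFP high array above every EGFP low array. Rgmb, a BMP co-receptor, rose by 1.64 (SE 0.18, adjusted p = 0.00023) and Cdk6, a kinase of the G1 phase, by 1.50 (SE 0.20, adjusted p = 0.000632). Ascl2, the transcription factor of the stem cell state, read 4.69, 4.70 and 5.14 against 4.00, 4.40, 4.43 and 4.01; its arrays did not overlap, but the difference of 0.63 (SE 0.19) missed the threshold at adjusted p = 0.0506. The other uncalled members ranged from 0.10 to 0.79.

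Wnt feedback and target genes include part of the same list. Of 25 tested members of a list of 29, 8 were called higher and 0 lower, with a median of 0.46. Without Lgr5 itself 7 of 24 were called, with a median of 0.38. Without Atg7KO-High-348 4 members were called and with the array SD as a covariate 5, and the median was 0.79 under the strict filter. Rnf43, a ubiquitin ligase that removes Frizzled receptors from the cell surface, read 9.10, 9.28 and 8.91 against 7.06, 7.75, 7.54 and 7.04, and rose by 1.75 (SE 0.25, adjusted p = 0.000993). Axin2, a scaffold of the beta-catenin destruction complex that Wnt signalling induces, read 8.81, 8.80 and 8.49 against 7.60, 7.46, 7.17 and 7.64, and rose by 1.23 (SE 0.23, adjusted p = 0.00411). Tnfrsf19, a TNF receptor family member of stem cells, read 6.76, 7.36 and 6.43 against 4.95, 6.04, 5.50 and 4.47, and rose by 1.61 (SE 0.33, adjusted p = 0.00739). The gates did not overlap for these 3 genes, and with the array SD as a covariate Tnfrsf19 was not called (adjusted p = 0.0769). Lgr5, Ephb3, Cd44, Sox4 and Kcne3 were the other called members. Inhibitors and targets such as Notum (0.29), Wif1 (0.26), Nkd1 (0.10) and Myc (0.16) were not called, and neither was Ccnd1 at -0.37 (adjusted p = 0.319). The 8 called members were also called higher in wild type, where 12 members were called higher and 0 lower, with a median of 0.69.

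The promoter of Tnfrsf19 is shown because Tnfrsf19 was the named Wnt gene whose promoter held the motif searched, the TCF motif CTTTGAT on either strand. The 250 bases before its start, chr14:61037988-61038237 on the minus strand of GRCm38.p6 from RefSeq, hold 1 match on the opposite strand, in capitals, beginning 202 bases before the start.
Tnfrsf19 promoter: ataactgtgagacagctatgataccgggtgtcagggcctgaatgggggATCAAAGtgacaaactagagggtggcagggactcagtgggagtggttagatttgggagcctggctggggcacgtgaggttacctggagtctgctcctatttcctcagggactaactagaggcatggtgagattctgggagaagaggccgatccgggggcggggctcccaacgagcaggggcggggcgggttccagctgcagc
The tables held promoters for 16 of the 25 tested Wnt list genes, 23 promoters in all, of which 2 (8.7%) held the motif, against 3.21% of 32851 promoters of the same length. A match of these letters is a description and not a binding site.

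Notch receptors rose while most other members of the pathway were not called. Notch1 read 7.54, 7.49 and 7.43 against 6.02, 6.24, 5.78 and 6.11, a rise of 1.45 (SE 0.18, adjusted p = 0.000433), and its gates were apart. Notch2 rose by 0.83 (SE 0.19, adjusted p = 0.0128), and Lfng, a glycosyltransferase that modifies Notch receptors, by 0.79 (SE 0.16, adjusted p = 0.00736). These 3 were the called members among 17, and 0 were lower. The ligands Dll1 and Dll4 differed by -0.55 and -0.60 and the effector Hes1 by 0.09, with none of these called. The list's median of 0.09 turned to -0.01 when arrays were centred on their medians.

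A few genes of BMP signalling were lower. Id3, an inhibitor of basic helix-loop-helix factors that BMP signalling induces, read 5.29, 6.15 and 5.98 against 7.83, 6.82, 6.87 and 7.17, and fell by 1.37 on the log2 scale (SE 0.34, adjusted p = 0.02). Id2 differed by -0.66 (adjusted p = 0.0437) and the ligand Bmp2 by -0.66 (adjusted p = 0.0496). These were the 3 called members of 16 tested, of which 6 differed upwards, with a median of -0.29 that was -0.07 under the strict filter. The call of Id3 was lost without Atg7KO-High-356 (adjusted p = 0.105), that of Id2 when any 1 of 9 arrays was left out (adjusted p up to 0.12) and that of Bmp2 when any 1 of 10 was (up to 0.155). With the array SD as a covariate 0 members were called.

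Goblet cell genes had the lowest list median among the lists examined. Of 25 members, all tested, 22 were called lower and 0 higher, all 25 differences were negative, and the median was -1.98. In wild type 18 were called lower and 0 higher, with a median of -1.46. Clca1, a secreted mucus protein, read 6.71, 7.14 and 8.90 in EGFP high samples against 11.09, 10.95, 11.27 and 11.17, a difference of -3.54 (SE 0.40, adjusted p = 0.000298). Zg16, a lectin of goblet cell granules, read 7.14, 7.75 and 10.11 against 11.73, 11.97, 11.91 and 11.71, a difference of -3.49 (SE 0.48, adjusted p = 0.000745). For both genes the EGFP low arrays were close together, the EGFP high arrays were spread, and Atg7KO-High-386 was the highest of those. Bcas1 fell by 2.75, the chemokine Ccl6 by 3.05 and the kallikrein Klk1 by 2.29 on the log2 scale. Muc2, the main secreted mucin (-2.15), and Atoh1, which directs cells to the secretory lineage (-2.15), fell as well. Foxa1, Foxa3 and Gfi1 (-0.36 to -0.19) were not called. The mean level of the list was 6.72 to 8.02 in EGFP high and 8.84 to 9.43 in EGFP low samples. Its median was -1.59 without Atg7KO-High-356 and -2.46 without Atg7KO-High-386, and 15 members were called with the array SD as a covariate. In sorted cell samples, fewer cells of a type and less RNA of that type per cell cannot be told apart.

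Enteroendocrine genes fell to a like extent but with more spread. Of 24 tested, 16 were called lower and 0 higher, with a median of -1.62. In wild type 9 were called lower and 0 higher, with a median of -1.8. Gip, the incretin hormone of K cells, read 6.97, 9.16 and 9.94 against 11.89, 12.01, 11.63 and 12.31, a difference of -3.27 (SE 0.67, adjusted p = 0.00767). Nts, neurotensin, read 4.06, 4.91 and 8.31 against 8.39, 9.76, 9.55 and 9.57, a difference of -3.56 (SE 0.75, adjusted p = 0.00885). The gates were just apart for Nts, where Atg7KO-High-386 lay next to Atg7KO-Low-356, and without Atg7KO-High-356 its call was lost (adjusted p = 0.0508). The hormones Ghrl (-2.52), Sct (-2.41) and Cck (-2.06) fell as well. The fate factors Neurog3 (-0.94) and Neurod1 (-1.16) were not called. Without Atg7KO-High-356 the list had 5 calls and a median of -1.06, and without Atg7KO-High-348 it had 7, while with the array SD as a covariate it had 1.

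Enterocyte genes were the third differentiated group. Of 38 tested, 20 were called lower and 0 higher, 36 differences were negative, and the median was -1.08. In wild type 2 were called lower and 0 higher, with a median of -0.515, and 0 members were called for the genotype difference. Fabp1, a fatty acid binding protein, read 8.30, 8.02 and 8.10 against 10.57, 9.91, 11.20 and 10.15, a difference of -2.32 (SE 0.33, adjusted p = 0.000921). Krt20, a keratin of differentiated cells, read 6.07, 7.64 and 7.59 against 9.23, 9.64, 9.89 and 9.86, a difference of -2.55 (SE 0.39, adjusted p = 0.00159). Neither gene overlapped between the gates. Alpi, on the brush border, read 5.19, 5.31 and 6.96 against 9.24, 7.26, 9.73 and 9.32. The brush border proteins Cdhr5 (-1.30) and Myo1a (-1.22) fell too. Hnf4a, a transcription factor of the whole epithelium, differed by 0.22 and Vil1, villin, by -0.40, and neither was called. With the array SD as a covariate 7 members were called, and without Atg7KO-High-348 10 were.

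Of 20 tested Paneth cell genes, 8 were called lower and 0 higher, 18 differences were negative, and the median was -0.92. In wild type 2 were called lower and 0 higher, with a median of -0.427, and 0 members were called for the genotype difference. The members that fell included Reg4 (-3.38), Guca2b, a guanylin family peptide (-2.34, adjusted p = 0.000446), Ang4, an antimicrobial ribonuclease (-2.25, adjusted p = 0.00236), and the stress protein Nupr1 (-2.29, adjusted p = 0.00523). Reg4, Guca2b and Nupr1 are not restricted to Paneth cells, and the specificity of Ang4 was not examined. These falls therefore do not by themselves describe Paneth cells. Ang4 read 6.36, 7.28 and 7.01 against 9.12, 9.73, 9.40 and 8.26. Lyz1, the lysozyme of Paneth cells, differed by -1.22 (adjusted p = 0.137) and was not called. Without Atg7KO-High-356 4 members were called, and adding the array SD to the fit gave a median of -1.41 and 5 calls.

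Lists for leukocytes and stroma held no calls, and the list for tuft cells held 2, where 10.9% of all genes tested were called. An unadjusted p under 0.05 was found in 27.0% of all genes tested. The tuft list had 13 tested of 22, with Trpm5 higher by 0.58 (adjusted p = 0.0115) and Avil lower by 0.68 on the log2 scale (adjusted p = 0.0295). The defining tuft gene Dclk1 did not pass the filter on low values. The call of Trpm5 was lost without Atg7KO-High-348 (adjusted p = 0.0603), and that of Avil without that array, Atg7KO-High-386 or Atg7KO-Low-386 (up to 0.136). Among 16 leukocyte genes 0 were called by limma and 4 had an unadjusted p under 0.05, and the mean of the list was 4.68 to 4.77 in EGFP high and 4.33 to 4.84 in EGFP low samples. Ptprc, the pan-leukocyte gene, did not pass the filter. Of 11 stromal genes 0 were called and 1 had an unadjusted p under 0.05, at list means of 4.57 to 4.66 and 4.62 to 4.89, and Pdgfra and Dcn did not pass the filter. In a list of 24 genes induced by cell dissociation, Klf4 was the 1 called member. Klf4 is also a factor of differentiated epithelium, and it read 5.20, 5.54 and 5.87 against 7.18, 7.76, 7.34 and 7.82, a difference of -1.99 (SE 0.33, adjusted p = 0.00236).

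Genes ascribed to reserve stem cells did not move together. Of 12 tested, Lrig1, a negative regulator of ErbB receptors, rose by 1.11 (SE 0.18, adjusted p = 0.00236), while Anxa3, an annexin, fell by 1.95 (SE 0.27, adjusted p = 0.000921) and Krt19 by 0.81 on the log2 scale (SE 0.18, adjusted p = 0.0136). Lrig1 read 7.79, 8.50 and 8.57 against 7.17, 7.24, 7.32 and 6.98. Bmi1 (-0.15), Hopx (0.31) and Tert (0.61) were not called. The call of Krt19 was lost without Atg7KO-High-356 (adjusted p = 0.0516) or Atg7KO-High-348 (0.057).

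**Figure D2:**
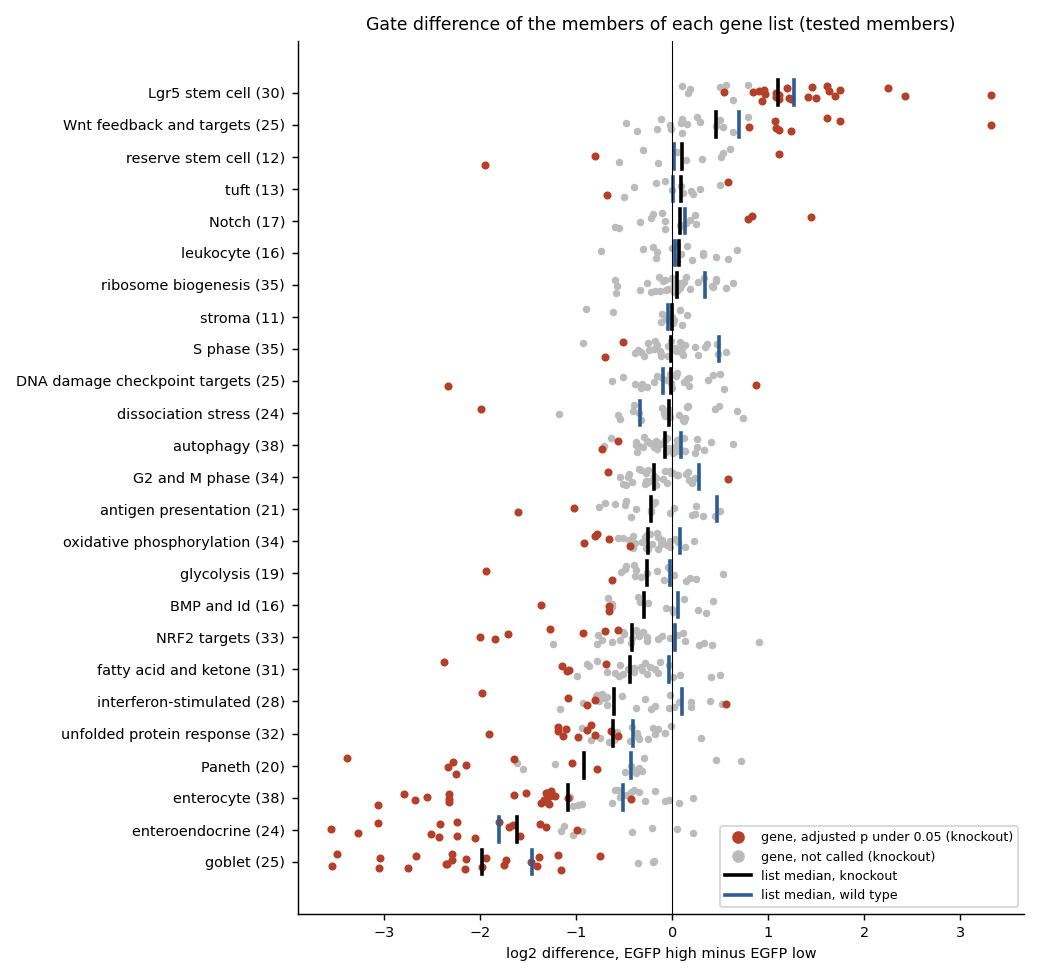
Log2 difference, EGFP high minus EGFP low (horizontal axis), of the tested members of 25 gene lists (vertical axis, number tested in brackets), with genes called in the knockout in red, uncalled genes in grey, the knockout list median as a black bar and the wild-type list median as a blue bar. The Lgr5 stem cell list lay to the right with a knockout median of 1.10, and the goblet, enteroendocrine and enterocyte lists to the left at -1.98, -1.62 and -1.08.

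Targets of NRF2, the transcription factor of the antioxidant response, were lower in EGFP high cells. Of 33 tested, 7 were called lower and 0 higher, with a median of -0.42. Nqo1, a quinone reductase, read 5.09, 4.74 and 5.01 against 6.33, 6.82, 6.66 and 6.81, a difference of -1.71 (SE 0.19, adjusted p = 0.00023). Gstm3, a glutathione transferase, read 6.86, 7.39 and 7.61 against 9.01, 9.06, 9.69 and 9.39, with means of 7.29 ± 0.38 (SD, n = 3) and 9.29 ± 0.32 (SD, n = 4), a fall with an SE of 0.33 and an adjusted p of 0.00236 by limma. All EGFP high arrays lay below all EGFP low arrays for both. Gsta4, another glutathione transferase, fell by 1.84 (SE 0.31, adjusted p = 0.00275), and Ugdh, which makes UDP-glucuronate, by 1.27 on the log2 scale (SE 0.29, adjusted p = 0.014). Txnrd1 (-0.56), Taldo1 (-0.70) and Pgd (-0.93), enzymes of thioredoxin and pentose phosphate metabolism, were the other 3. Gclc (0.13), Srxn1 (-0.31) and Gstm1 (-0.02) were not called, and Hmox1 did not pass the filter on low values. The enterocyte list moved with these genes, with means of 6.84 to 7.07 in EGFP high and 7.51 to 8.54 in EGFP low samples, and its part in the result was not tested. Without Atg7KO-High-356 3 members were called, and also with the array SD as a covariate, where the median was -0.14, and without Atg7KO-High-356 Ugdh was not (adjusted p = 0.0799).

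Ugdh was the named NRF2 gene whose promoter held the antioxidant response element searched, TGACNNNGC on either strand, and it is shown for that reason. The 250 bases before its start, chr5:65435843-65436092 on the minus strand of GRCm38.p6 from RefSeq, hold 2 matches, in capitals, beginning 132 and 94 bases before the start, the second on the opposite strand.
Ugdh promoter: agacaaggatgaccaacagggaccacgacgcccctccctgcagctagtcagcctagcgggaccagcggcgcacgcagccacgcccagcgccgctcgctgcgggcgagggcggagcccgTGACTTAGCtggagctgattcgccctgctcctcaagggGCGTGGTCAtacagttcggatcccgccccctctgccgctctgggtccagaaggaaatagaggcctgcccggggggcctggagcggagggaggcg
Promoters were at hand for 28 of the 33 tested NRF2 list genes, and 8 of their 38 promoters (21.1%) held these letters, against 10.2% of the 32851. The CHR motif of cell cycle genes, TTTGAA, was in 13 of 63 promoters of the S phase and G2 and M phase lists (20.6%), against 16% of all.

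Cdkn1a, which encodes the cell cycle inhibitor p21, was the leading gene of its list. It read 6.11, 6.56 and 7.08 in EGFP high samples and 8.70, 8.89, 8.82 and 9.25 in EGFP low samples, with the gates well apart and a difference of -2.33 (SE 0.23, adjusted p = 0.000138). Of 25 tested DNA damage checkpoint targets, 1 other was called: Ddb2, a DNA damage binding protein, read 7.86, 7.59 and 7.40 against 7.22, 6.89, 6.32 and 6.54 and rose by 0.87 (SE 0.19, adjusted p = 0.0113), a call lost without Atg7KO-High-356 (adjusted p = 0.0612). Mdm2 (-0.19), Ccng1 (-0.27) and Bbc3 (0.00) were not called, and the list's median was -0.01. The share of the list called was below the 10.9% of all genes tested.

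Genes of the unfolded protein response were lower. Of 32 tested, 11 were called lower and 0 higher, 31 differences were negative, and the median was -0.61. Ern2, the stress sensor of mucus-secreting epithelium, read 5.45, 6.72 and 6.99 against 7.39, 8.68, 8.70 and 8.41, a difference of -1.91 (SE 0.38, adjusted p = 0.0061). The chaperone cofactors Dnajc3 (-1.14) and Dnajb11 (-0.98), the secreted factor Manf (-1.19) and the transcription factor Xbp1 (-0.84) fell too, while Hspa5, the main chaperone of the compartment, differed by -0.57 (adjusted p = 0.0606). The goblet list moved with these genes, as given above, and its part was not tested. Without Atg7KO-High-356 or Atg7KO-High-348 4 members were called, and with the array SD as a covariate 1 was, at a median of -0.39.

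Metabolic genes showed smaller differences. Of 34 oxidative phosphorylation genes 5 were called lower and 0 higher (median -0.25), with Sdhb, a subunit of complex II, at 9.19, 9.35 and 9.74 against 10.21, 10.06, 10.37 and 10.26 (difference -0.80, SE 0.17, adjusted p = 0.00799). Uqcrfs1 (-0.79) and Ndufs1 (-0.66), of complexes III and I, were called too, as were Cycs and Cox5a. Among 31 fatty acid and ketone genes 5 were called lower and 0 higher (median -0.44). They were the desaturase Scd2 (-2.37), the triglyceride synthase Dgat2 (-1.07), the mitochondrial enzymes Cpt2 (-1.10) and Hadhb (-1.15), and the nuclear receptor Ppard (-0.69). Of 19 glycolysis genes 2 were called, both lower: Pfkp, a phosphofructokinase, at 5.39, 5.79 and 5.98 against 7.27, 7.59, 7.55 and 8.22 (difference -1.94, SE 0.26, adjusted p = 0.000708), and Ldha at -0.63 (adjusted p = 0.024). For glycolysis the share called was close to the 10.9% of all genes tested. The enterocyte list moved with these metabolic lists and its part was not tested. Adding the array SD to the fit left 1, 0 and 1 members of these lists called lower, with medians of -0.08, -0.08 and -0.01. The calls of Uqcrfs1, Ppard, Cpt2, Ldha and Cycs were each lost without Atg7KO-High-356 (adjusted p = 0.0983, 0.0902, 0.0634, 0.0845 and 0.0869), as was that of Dgat2 (0.054), and those of Uqcrfs1, Ppard, Cpt2, Ldha, Cycs and Ndufs1 without Atg7KO-High-348 (up to 0.111).

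Among 38 autophagy genes 2 were called, both lower, a smaller share than the 10.9% of all genes tested. Atg3, the enzyme that acts after Atg7 in the conjugation of LC3, read 8.40, 8.31 and 8.68 against 9.17, 9.04, 9.33 and 9.21, a difference of -0.73 (SE 0.13, adjusted p = 0.00406). Sqstm1, the selective autophagy receptor p62, differed by -0.56 (SE 0.13, adjusted p = 0.0171), a call lost without Atg7KO-High-356 (0.0852) or Atg7KO-High-348 (0.0622). The list's median was -0.07, and Atg5 (-0.19), Becn1 (-0.34) and Map1lc3b (-0.23) were not called.

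The cell cycle lists hardly differed between the gates of the knockout. Of 35 S phase genes 2 were called, both lower, and the median was -0.01. Slbp, the histone mRNA binding protein, read 7.54, 7.52 and 7.51 against 8.22, 8.07, 7.88 and 7.97 (difference -0.51, adjusted p = 0.0244), and cyclin E1, Ccne1, differed by -0.70 (adjusted p = 0.0488). Of 34 genes of G2 and M phase, Plk1, a mitotic kinase, fell by 0.67 (adjusted p = 0.0132) and Cenpf, a kinetochore protein, rose by 0.58 on the log2 scale (adjusted p = 0.0288), with a list median of -0.19. The proliferation marker Mki67 differed by 0.14 and was not called. None of these 4 calls was stable to leaving out 1 array: Plk1 was lost without Atg7KO-High-356 or Atg7KO-High-348 (adjusted p up to 0.0706), Cenpf without either of those or Atg7KO-Low-356 (up to 0.115), Slbp without any of 4 arrays (up to 0.0742) and Ccne1 without any of 12 (up to 0.21). The S phase median was 0.08 and 0.11 under quantile and cyclic loess scaling and 0.27 with the array SD as a covariate, where the G2 and M phase median was 0.002.

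In wild type the same lists had positive medians, 0.49 for S phase with 34 of 35 differences positive and 0.28 for G2 and M phase with 32 of 34 positive. The gate differences themselves were compared between genotypes with a contrast of contrasts. By that test 10 of the 35 S phase genes and 13 of the 34 G2 and M phase genes had an unadjusted p under 0.05, where 14.0% of all genes tested did. In each of these 23 genes the gate difference was lower in the knockout, and 0 passed adjustment. Among all protein-coding genes at that p 1302 were lower and 505 higher. With the array SD as a covariate 865 of all genes tested had such a p, in place of 2225, and without the 2 narrowest arrays 1417 had. The list counts were not repeated under these settings. The mean level of the S phase list was 7.06 to 7.38 in knockout EGFP high and 7.35 to 7.91 in wild-type EGFP high samples, against 7.01 to 7.48 and 7.02 to 7.41 in the EGFP low samples, so its ranges overlapped. That of the G2 and M phase list was 7.58 to 7.81 in knockout EGFP high and 8.12 to 8.21 in wild-type EGFP high samples, which did not overlap, against 7.51 to 8.00 and 7.61 to 8.02 in the EGFP low samples.

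Antigen presentation genes had the same pattern. Their median was -0.22 in the knockout (-0.03 after quantile normalization) and 0.47 in wild type. For the genotype difference 14.0% of all genes tested had an unadjusted p under 0.05, and of protein-coding genes 1302 were lower and 505 higher. Of the 21 antigen presentation genes 10 had such a p, all lower in the knockout, with 0 called. That count was not repeated with the array SD as a covariate either. H2-DMb1, which loads peptides onto class II molecules, read 5.15, 6.27 and 7.19 in knockout EGFP high against 7.05, 7.34, 8.42 and 8.42 in EGFP low samples (difference -1.60, SE 0.46, adjusted p = 0.0385), while in wild type it differed by 1.26 (adjusted p = 0.19). The knockout arrays overlapped, and the genotype difference of -2.86 had an unadjusted p of 0.000567 and an adjusted p of 0.176. H2-T23, a nonclassical class I gene, was the other called member of 21, at -1.02 (adjusted p = 0.0374), where 10.9% of all genes tested were called. Both calls were lost without Atg7KO-High-356 (adjusted p = 0.188 and 0.134), Atg7KO-High-348 (0.096 and 0.151), Atg7KO-Low-387 or Atg7KO-Low-386, and that of H2-T23 also without Atg7KO-Low-356 or WT-High-411. Interferon-stimulated genes had 4 called lower and 1 higher of 28, with a median of -0.60. Ifih1, a cytoplasmic RNA sensor, read 6.53, 6.45 and 6.64 against 7.41, 7.21, 7.47 and 7.63 (difference -0.89, SE 0.15, adjusted p = 0.00232), and Zbp1, a nucleic acid sensor, fell by 1.98 (SE 0.47, adjusted p = 0.0166). Ifitm3 rose by 0.56 (adjusted p = 0.0313), Oas2 fell by 1.09 (adjusted p = 0.0475) and Irgm1 by 0.81 on the log2 scale. The call of Zbp1 was lost without Atg7KO-High-356 (0.0889) or Atg7KO-High-348 (0.0642), that of Ifitm3 without any of 6 arrays (up to 0.105) and that of Oas2 without any of 11 (up to 0.187).

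Of all genes tested, 10.9% were called and 27.0% had an unadjusted p under 0.05. Ribosome biogenesis genes gave 0 calls of 35 by limma in the knockout, with 6 at such a p, a smaller share in both. Their median was 0.05, or -0.04 when arrays were centred on their medians, and the named members Nop56 (0.63, adjusted p = 0.0724) and Noc4l (-0.57, adjusted p = 0.09) differed in opposite directions.

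In the same gates of wild type 2.44% of the genes tested were called, with 193 higher (1.22%) and 194 lower (1.22%), and 2348 at an unadjusted p under 0.05 (14.8%). The genes called in both genotypes numbered 238, which is 13.7% of the knockout calls and 61.5% of the wild-type calls. In 237 of them the direction was the same, 92 higher and 145 lower. The exception was Ogfr, the opioid growth factor receptor, named for its direction after its values were seen as well as by the rule: it read 5.68, 5.60 and 5.50 against 6.89, 6.08, 6.42 and 6.41 in the knockout (difference -0.86, adjusted p = 0.0197) and differed by 0.92 in wild type (adjusted p = 0.0362). Its knockout call was lost without any 1 of the 3 knockout EGFP high arrays (adjusted p up to 0.0623). The larger number of calls in the knockout is not a test of a difference between genotypes.

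That test called 1 gene of 15873 (0.00630%), higher in the knockout (0.00630%), with 0 lower (0%), and 2225 genes (14.0%) had an unadjusted p under 0.05. Gm12292, a predicted gene named here after its values were seen, read 6.97, 6.68 and 6.65 in knockout EGFP high samples against 5.03, 4.87, 5.01 and 5.00 in EGFP low samples. In wild type it read 5.08, 4.62 and 4.58 against 5.10, 5.27, 5.41 and 5.42. The gate difference was 1.79 (SE 0.15) in the knockout and -0.54 in wild type, and these differed by 2.33 (adjusted p = 0.00039). With the title number as a fixed block, which leaves 1 residual degree of freedom, they differed by 2.61 and were not called (adjusted p = 0.0507 by limma). The 3 knockout EGFP high arrays were above all 11 others.

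Next by p were genes that did not pass. Rnf5, a membrane ubiquitin ligase, read 4.56, 4.52 and 5.07 against 6.01, 6.52, 6.49 and 6.33 in the knockout, a difference of -1.62, and differed by 0.55 in wild type (genotype difference -2.18, adjusted p = 0.0593). It passed without WT-Low-341 (adjusted p = 0.0149), without Atg7KO-High-386 (0.0333), with array weights (0.0302) and under the strict filter (0.0361). Zmat5 (-2.01), Gipc2 (-1.21) and Wbp11 (-1.05) had lower gate differences in the knockout, and Dnajb7 (1.26), Ftx (1.33), Olfr1272 (1.16), Slc39a14 (1.10) and Lmntd2 (0.85) higher ones, with adjusted p between 0.126 and 0.176. Ftx, like Jpx, is a long noncoding RNA of the X inactivation centre. For Clca1, Nqo1 and Cdkn1a the gate difference in wild type was -2.18, -0.99 and -1.34, and the knockout difference was more negative by 1.36, 0.71 and 0.99, with unadjusted p of 0.0314, 0.0172 and 0.00872 and adjusted p of 0.316, 0.281 and 0.254. These genotype differences were therefore not called.

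**Figure D3:**
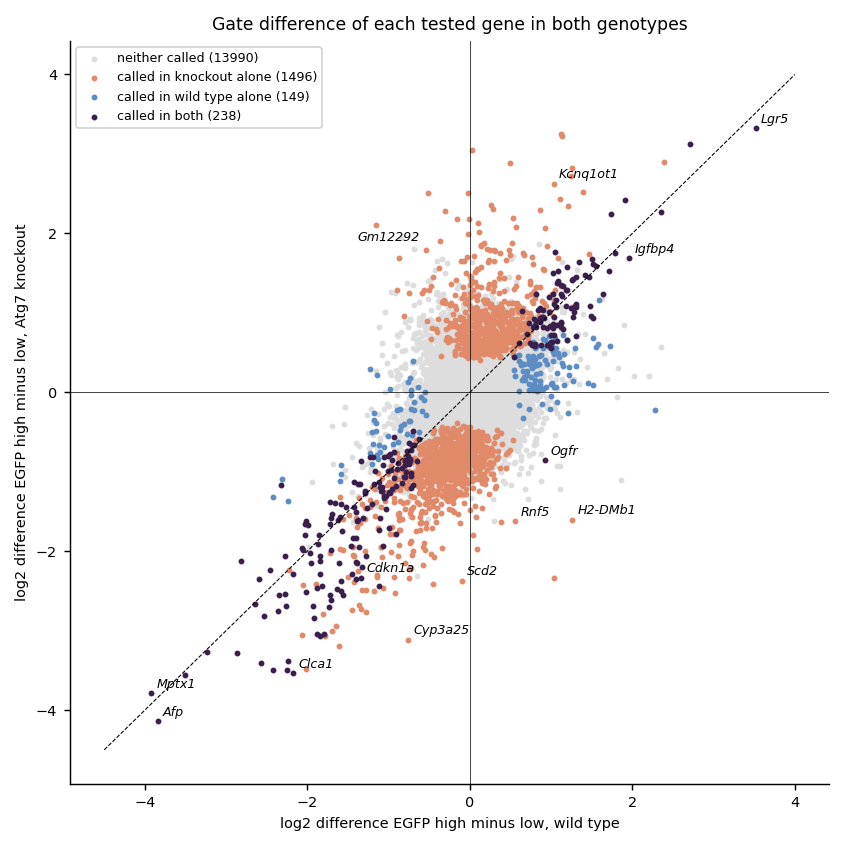
Log2 difference, EGFP high minus EGFP low, of each of the 15873 tested genes in wild type (horizontal axis) and in the Atg7 knockout (vertical axis), coloured by the genotype in which the gene was called; the dashed line marks equal differences. Of the 238 genes called in both genotypes 237 had the same direction in both, and Gm12292, at 1.79 in the knockout and -0.54 in wild type, was the 1 gene called for the genotype difference.

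RefSeq classes of the called genes showed an unequal split, a grouping chosen after the data were seen. Genes that are not protein coding made up 14.2% of the genes tested, 29.1% of the 711 called higher and 4.79% of the 1023 called lower in the knockout. In wild type they made up 6.22% of the genes called higher. Of 1339 long noncoding RNA genes 140 were called higher and 7 lower in the knockout, of 214 microRNA genes 27 and 0, and of 86 small nucleolar RNA genes 11 and 0. The split did not hold for a mixed class of 609 other genes that are not protein coding. Of those, 28 were called higher (4.6%) and 42 lower (6.9%). Protein-coding genes were called higher in 3.7% and lower in 7.15% of 13620. The mean level of genes that are not protein coding was 5.41, 5.36 and 5.29 in the knockout EGFP high samples and 5.02 to 5.22 in the EGFP low samples, so the gates did not overlap. In wild type it was 5.06 to 5.18 against 5.06 to 5.32. A larger share of genes that are not protein coding was called higher in each of 5 classes of mean level: among the 20% of genes with the highest mean level, 15.3% of genes that are not protein coding and 3.41% of protein-coding genes were called higher. The filter on low values needs 3 arrays. Some genes may therefore have been tested only through the 3 knockout EGFP high arrays, which favours calls higher. The class counts were not repeated under another filter. Over the 3 EGFP high arrays the mean was highest where the array SD was lowest, in Atg7KO-High-356. Among the wild-type arrays the highest mean, 5.32, was likewise in the array with the lowest SD (1.90), WT-Low-411, which is of the EGFP low gate. The part of the array SD in this split was not tested beyond the covariate. With the array SD as a covariate 53 such genes were called higher in place of 207, and 20.1% of the genes called higher, and without Atg7KO-High-356 or Atg7KO-High-348 there were 109 or 106.

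**Figure D4:**
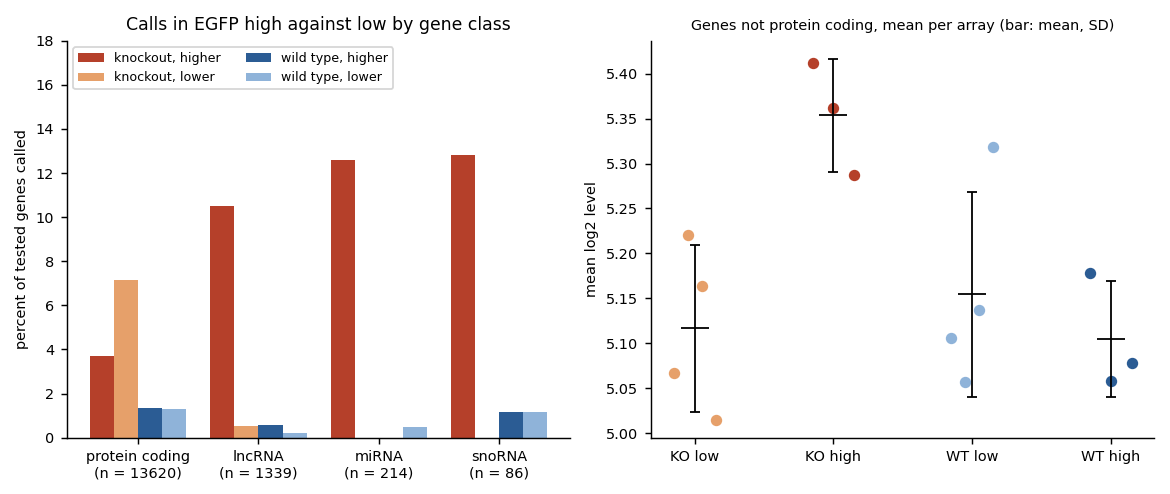
Left, percent of tested genes of 4 RefSeq classes (horizontal axis, number tested in brackets) called higher or lower in EGFP high cells in each genotype; right, mean log2 level of all genes that are not protein coding on each array by group, with the mean and SD as bars. The noncoding classes shown were called higher in 10.5% to 12.8% of genes in the knockout. A mixed class of 609 other genes, not shown, had 4.6% called higher and 6.9% lower. The 3 knockout EGFP high arrays, at 5.29 to 5.41, lay above the 4 knockout EGFP low arrays.

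MicroRNA genes were read through probe sets for the locus, which detect precursor or host transcript RNA, so mature microRNA was not measured separately. Of the 27 called microRNA genes, 20 had arrays that did not overlap between the gates. That is a smaller share than the 1628 of all 1734 called genes. Mature sequences in RefSeq were matched to 20 of the 27. The 4 tested genes of the miR-181 family are shown because 3 of them were called and their mature 5p products share the seed, bases 2 to 8, in capitals. Mir181a-2 and Mir181b-2 lie close together on chromosome 2 (mature 5p at chr2:38852741-38852763 and chr2:38853845-38853868, plus strand), and Mir181c and Mir181d on chromosome 8 (chr8:84178924-84178945 and chr8:84178759-84178781, minus strand), all in GRCm38.p6.
miR-181a-5p: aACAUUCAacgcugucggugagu
miR-181b-5p: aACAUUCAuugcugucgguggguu
miR-181c-5p: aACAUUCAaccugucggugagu
miR-181d-5p: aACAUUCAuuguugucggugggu
Mir181b-2 read 6.30, 8.22 and 7.49 in EGFP high samples and 3.33, 5.91, 3.44 and 3.80 in EGFP low samples, a rise of 3.22 (SE 0.57, adjusted p = 0.00345). Mir181a-2 read 6.08, 5.87 and 6.50 against 4.63, 4.73, 5.31 and 3.32, a rise of 1.65 (SE 0.39, adjusted p = 0.0168). Mir181d rose by 0.74 (SE 0.19, adjusted p = 0.0249). The gates were apart for these 3, with Atg7KO-Low-353 high among the EGFP low samples for Mir181b-2. Mir181c differed by 0.15 (SE 0.23, adjusted p = 0.713) and its arrays overlapped.

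Mir15a, whose mature 5p product begins with a seed shared by the miR-15 and miR-16 family, read 8.65, 7.97 and 7.26 against 6.80, 4.70, 4.41 and 4.40, a rise of 2.88 (SE 0.59, adjusted p = 0.00747). Its sequence is given for that seed, in capitals, from chr14:61632075-61632096 on the minus strand of GRCm38.p6.
miR-15a-5p: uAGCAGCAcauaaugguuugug
Atg7KO-Low-356 was high among the EGFP low arrays, and the gates did not overlap. Mir103-2 (3.05, adjusted p = 0.0365) and Mir17 (1.69, adjusted p = 0.0476) were called although their arrays overlapped, and Mir17hg, the host gene of the cluster that holds Mir17, rose by 0.69 (SE 0.20, adjusted p = 0.0371). In wild type 0 of the 214 microRNA genes were called higher and 1 lower. For the genotype difference 63 of the 214 had an unadjusted p under 0.05, where 14.0% of all genes tested did. All 63 were higher in the knockout, and 0 were called. Among all genes that are not protein coding 373 were higher and 45 lower at that p. These counts were not repeated with the array SD as a covariate or under another filter. The limit of the filter given for the gene classes holds for microRNA genes too. With the array SD as a covariate 2 microRNA genes were called higher in the knockout, without Atg7KO-High-356 9 and without Atg7KO-High-348 8.

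**Figure D5:**
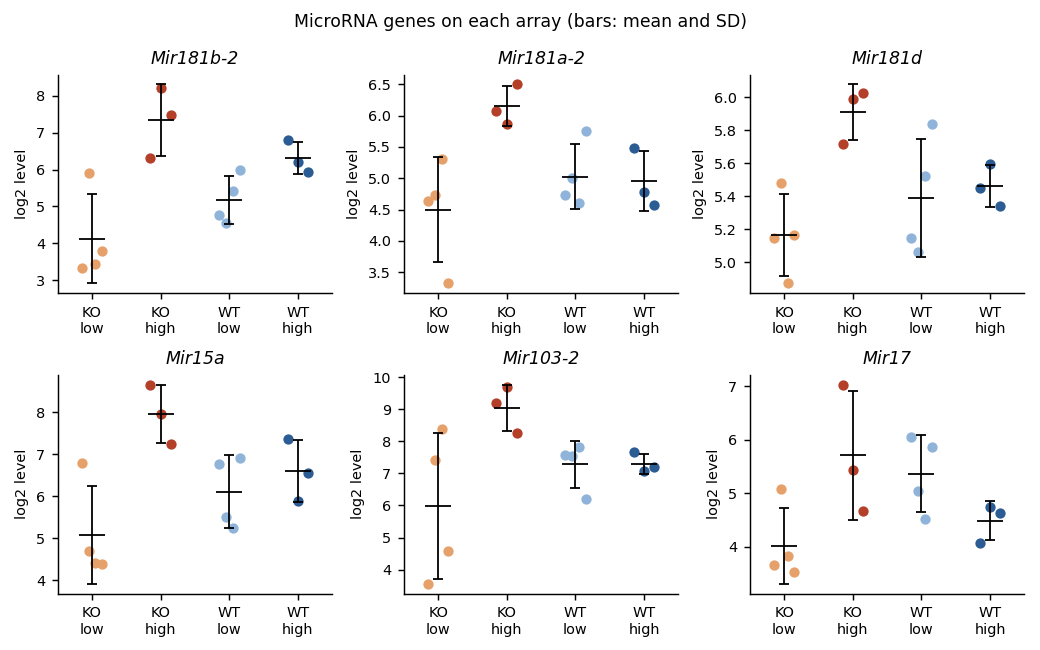
Log2 level (vertical axis) of 6 microRNA genes on each array by genotype and gate (horizontal axis), points being arrays and bars the mean and SD. The knockout EGFP high arrays lay above the knockout EGFP low arrays for Mir181b-2, Mir181a-2, Mir181d and Mir15a, and overlapped them for Mir103-2 and Mir17.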

How the data were processed

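RNA from 14 sorted samples was measured, 1 array each. The authors deposited log2 values for each probe set; the submitters' processing notes name Affymetrix Expression Console and RMA without versions. RMA gives all arrays a common distribution of probe values. Arrays give no read depth, and their number limits the precision.

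Of 25429 probe sets, 24675 had 1 gene symbol, 0 had several and 754 had none and were left out. A gene was tested if 3 or more arrays had it at their 40th percentile or higher (15873). limma 3.58.1 in R 4.3.3 (lmFit, eBayes) fitted the 4 group means over all 14 arrays, with 10 residual degrees of freedom and no covariate. P-values are two-sided, adjusted with the Benjamini-Hochberg method over all genes tested. The fit was tested on simulated data.

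Members and lists were chosen with earlier results of these data known. The named genes are Atg7, Lgr5, Olfm4, Ascl2, Nqo1, Clca1 and Cdkn1a, up to 15 called genes per direction by size whose arrays do not overlap, up to 4 called members of each list by p (or 2 where none was called), and up to 5 per direction by p for the genotype difference; predicted genes and small RNAs were left out of the rankings. Other list members are named with their values and were picked after these were seen, as were the RefSeq classes. Lists were described by counts and medians and not tested. Groups came from the sample titles. Numbers 356 and 386 occur in both knockout gates and 411 in both wild-type gates, but the labels do not say that they name mice. Deviations from group means correlated at 0.115, 0.182 and -0.0403 for these numbers. Both knockout values exceeded those between knockout arrays of different gates and numbers, which ran from -0.146 to 0.0853. In wild type such values ran from -0.17 to 0.159. The main fit used no pairs because the labels state none, and fits with the number as a block are given below. Promoter and microRNA sequences came from RefSeq tables. The strict filter takes the 60th percentile. Alternatives covered the prior, the groups fitted, blocks, array weights, scaling, filters, covariates and leaving out arrays.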

Additional observations from a re-analysis of the deposited data

Results flagged for a closer look

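Among the 4 Atg7KO-Low samples, 142 sets of values were examined for an array far from the other 3, and 11 had one (7.75%), where chance gives about 1 in 20. Atg7KO-Low-356 was low for Cenpf, at 6.91 against 7.36 to 7.44, and for Nts, at 8.39 against 9.55 to 9.76, and it was high for Ppard, at 7.90 against 7.67 to 7.70. Atg7KO-Low-353 was high for Scai, at 5.05 against 3.81 to 3.98, and low for the mean of the NRF2 target list, at 7.37 against 7.65 to 7.69. It was also the one EGFP low knockout sample with Y-linked RNA, with Eif2s3y at 7.96 against 2.32 to 2.50, Uty at 5.91 against 2.98 to 3.21 and a Y-linked mean of 7.05 against 2.85 to 3.01. Atg7KO-Low-387 was low for Gsdmc2, at 5.20 against 6.94 to 7.14, for the ribosome biogenesis mean, at 7.23 against 7.49 to 7.54, and for the array SD, at 1.98 against 2.03 to 2.04. The gate difference of Gm12292 was 2.33 higher in the knockout than in wild type by the test of the difference itself.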

How the results depend on the processing

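Of the 103 named genes called between the knockout gates, 48 were called under every alternative that tested them. Leaving aside the fixed replicate block, 59 were. The strict filter tested 96 of the 114 named genes, so some met fewer alternatives. Of the 103, 73 were called whichever single array was left out and 30 were not. Leaving out 1 array gave 781 (without Atg7KO-High-356) to 2122 knockout calls, 337 to 875 higher and 431 to 1247 lower, and 739 of the 781 were among the 1734. Wild-type calls ran from 103 (without WT-High-412) to 442, with 56 to 218 higher and 44 to 224 lower. Calls for the genotype difference ran from 1 to 4, with 0 to 3 lower. Fitting only the 2 groups compared gave 1027 knockout calls (382 higher, 645 lower). The array SD as a covariate gave 495 (264 and 231), median centring gave 446 higher, and leaving out the narrowest arrays, Atg7KO-High-356 and WT-Low-411, gave 1110 with 630 lower. Array weights gave 1201 wild-type calls (642 and 559). Array weights and the strict filter each gave 2 calls for the genotype difference, 1 of them lower. The cause of these shifts was not tested. The title number as a random replicate block (correlation 0.0732) gave 1965 knockout calls, which held all 1734, and 2 for the genotype difference, 1 lower. As a fixed replicate block, with 1 residual degree of freedom, it gave 610 knockout calls, 257 of them higher, 12 in wild type (5 and 7) and 88 for the genotype difference (63 and 25). None of these 88 was Gm12292, whose difference was 2.61 (adjusted p = 0.0507 by limma), and the second call under the random block was Rnf5 (0.0466). Between same-numbered arrays, 1724 of the 1734 called genes had the direction of the full comparison under both shared knockout numbers. That count is no separate check, since these arrays helped to make the calls. For the 1628 called genes whose gates did not overlap, the direction was fixed in advance. The uncalled Y-linked genes changed sign when 1 array was left out, Eif2s3y from -1.24 to 1.74 and Uty from -0.70 to 0.94.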
